A study of Mus musculus with 12 samples.

Results

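Genes of hepatic stellate cells and of the extracellular matrix were followed in the livers of mice that lack A1cf, which encodes an RNA-binding cofactor of messenger RNA editing. The genes were a named list of 38 among the 46882 gene names of the deposited count table, and all 38 were found there by symbol. They fall into 9 groups by role: 6 genes of stellate cell identity, 4 growth factors and receptors, 4 fibroblast genes, 5 fibrillar collagen chains, 4 chains of collagens VI and XIV, 6 basement membrane genes, 2 contractile genes, 4 matrix organisers and 3 tissue inhibitors of metalloproteinases. RNA-seq libraries came from whole liver of 6 wild-type (WT) and 6 A1cf -/- (KO) mice, all of the C57BL/6 strain and 6 to 8 weeks old, and the series' design text calls them biological replicates. No treatment is given for either genotype, and how the A1cf -/- allele was made, the sex of the mice and whether the controls were littermates are not given in the sources used here. Each library is called by its genotype and the number in its title.

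Hepatic stellate cells lie between hepatocytes and the sinusoidal endothelium, store vitamin A as retinyl esters and carry receptors for platelet-derived growth factor. After injury they can turn into contractile, collagen-secreting myofibroblasts, which raise fibrillar collagens, smooth muscle actin and the inhibitors of matrix proteases. The basement membrane proteins of the sinusoid come from stellate cells and from endothelial cells, and small amounts of matrix RNA come from portal fibroblasts and vessel walls.

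Library totals ran from 22129092 counts (KO 584) to 51082317 counts (KO 588). A1cf itself fell from 50.9 ± 2.26 to 10.6 ± 1.55 CPM (counts scaled to a common library size, mean ± SD, n = 6 each) without overlap (log2 fold change -2.26, edgeR adjusted p = 1.14e-08). Among 13706 genes with enough counts for the test, 523 passed an adjusted p of 0.05, 236 of them higher in KO (1.72% of those tested) and 287 lower (2.09%). The median log2 fold change of all tested genes was 0.01, with quartiles at -0.13 and 0.20. The words rose and fell are kept for genes past this threshold. In whole liver, fewer cells of a type and less RNA per cell cannot be told apart.

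Of the 38 stellate cell and matrix genes, 36 had enough counts for the test, and Lox and Timp1 did not. Prrx1, Lrat and Pdgfrb rose in KO livers, which is 3 of 36 beside the 1.72% of all tested genes, and 0 fell. The fitted change was above 0 in all 36, where 51.8% of all tested genes had a change above 0, and its median was 0.46 on the log2 scale. The 36 genes were measured in the same 12 livers, so their common direction is not 36 separate observations. The list was also chosen with earlier results of these data known. The shares of all tested genes are therefore not an independent comparison for it. At an unadjusted p of 0.05 the edgeR test passed 17 of 36, all higher in KO, beside 11.3% of all tested genes higher and 9.9% lower at that p. Fitted folds were over 1.5 in 5 of the 36 and over 2 in Prrx1 alone. Every KO library was above every WT library for Pdgfrb and Prrx1, 2 of the 36, while 1.33% of all tested genes were separated in that direction. In 20 genes all 6 KO libraries lay above the WT median, and in 35 at least 1 KO library was above all 6 WT libraries. The latter needs only 1 high KO liver. Shares of all tested genes were not worked out for counts of these kinds or for the fold counts. Such counts therefore do not set the list apart from other genes.

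**Figure D1:**
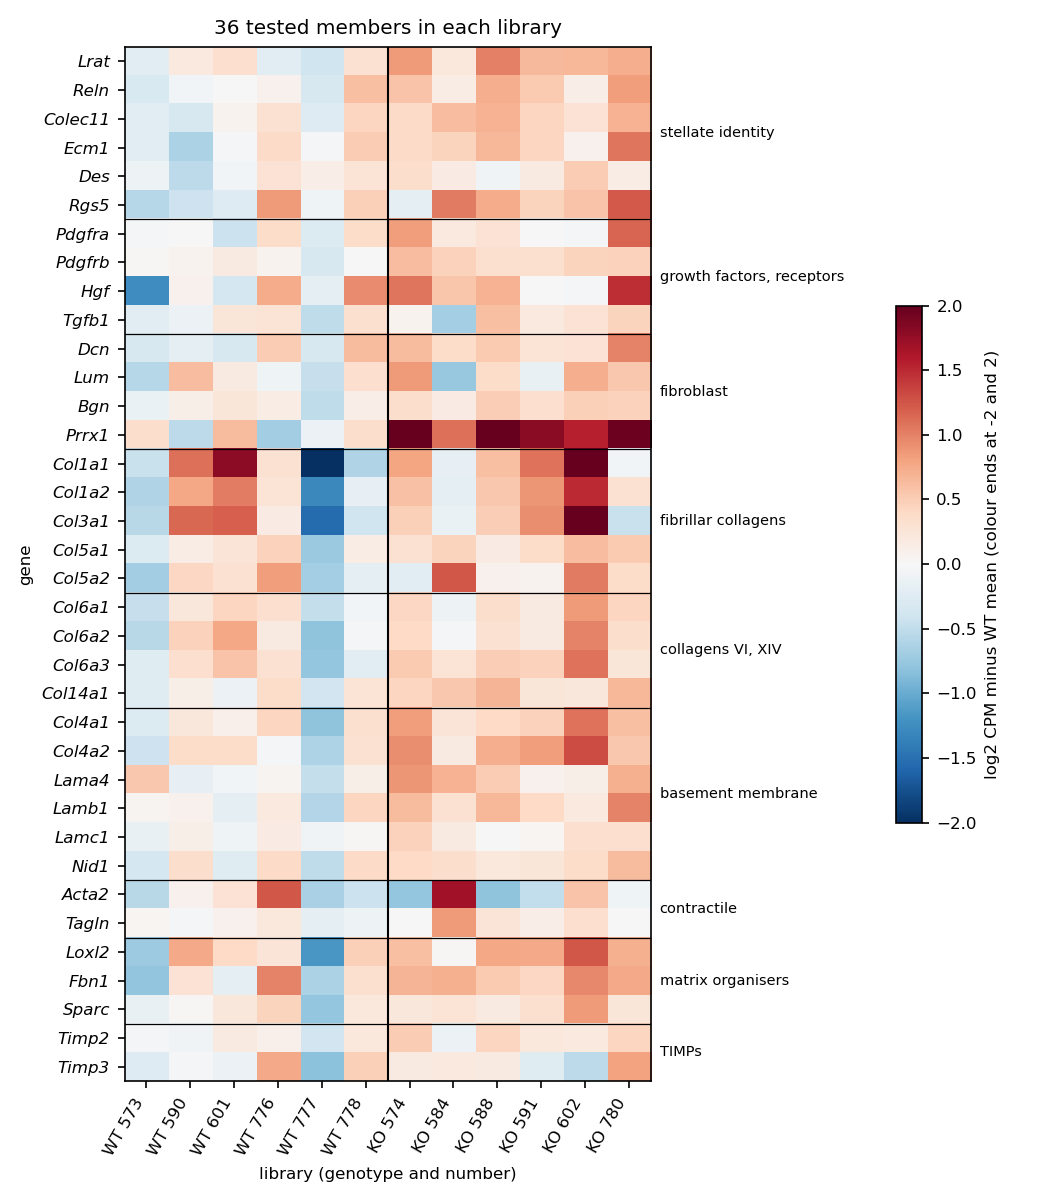
Level of the 36 tested genes in each of the 12 libraries, as log2 CPM minus the gene's WT mean, with WT libraries left and KO libraries right of the vertical line. Red is above the WT mean and blue below; WT 777 is blue in most rows, KO 602 is darkest for Col1a1 and Col3a1, and Prrx1 is red in all 6 KO libraries.

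**Figure D2:**
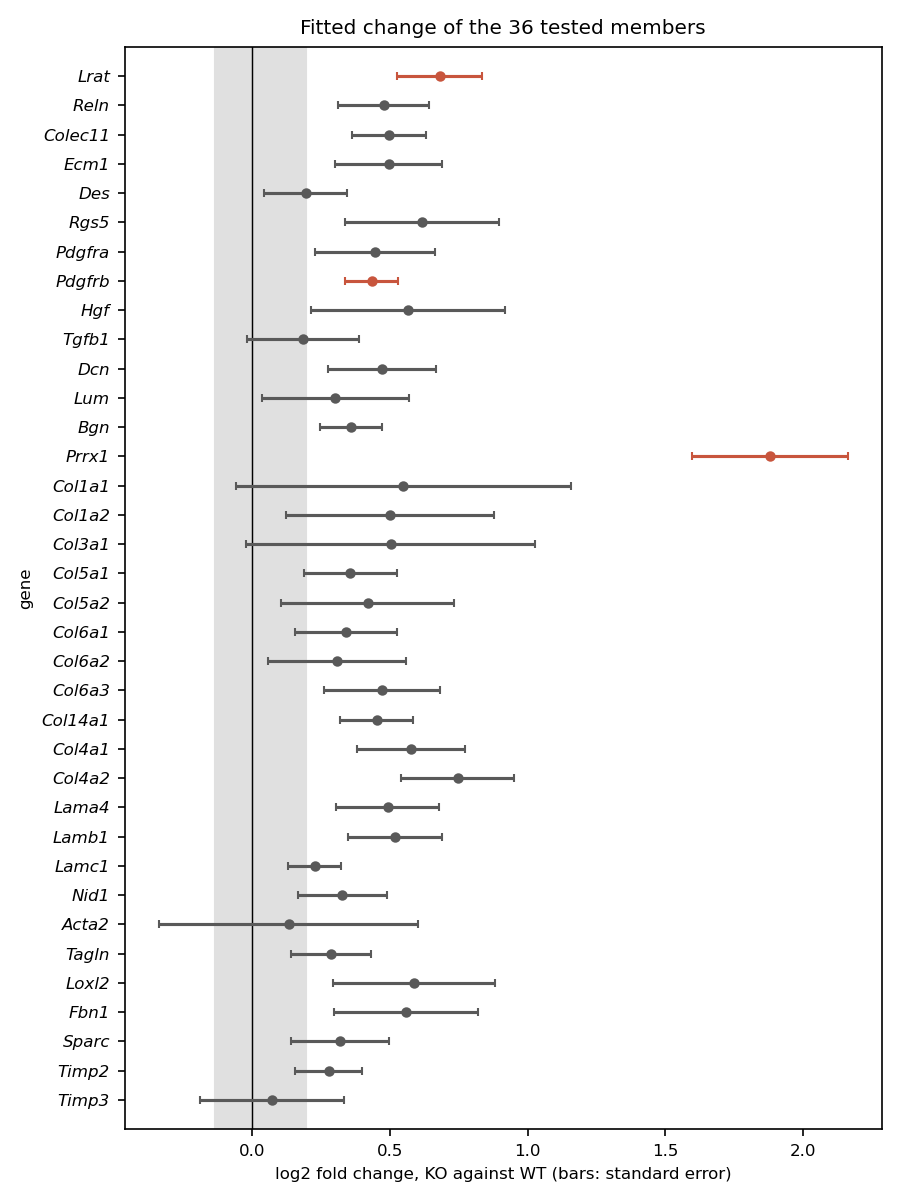
Fitted log2 fold change of KO against WT for each of the 36 tested genes, with bars for the standard error, the 3 genes past the threshold in red and the others in grey. The grey band spans the quartiles of all 13706 tested genes, from -0.13 to 0.20; all 36 points lie right of 0 and Prrx1 stands farthest out at 1.88.

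Stellate identity genes were higher in KO livers by about 1.4 to 1.6-fold in 5 of 6 cases. Of the 6, 1, Lrat, passed the edgeR test, beside 1.72% of all tested genes higher in KO. DESeq2 and limma-voom called 2 each, Lrat and Colec11, beside 548 and 264 of all 13706 tested genes higher in KO. Lrat encodes lecithin retinol acyltransferase, the enzyme that esterifies retinol for storage, and lies at chr3:82892579-82903973 on the minus strand (mm10). Its level was 6.17, 8.17, 9.03, 6.11, 5.42 and 8.80 CPM in WT 573, 590, 601, 776, 777 and 778, and 12.9, 8.30, 14.4, 11.2, 11.3 and 11.8 CPM in KO 574, 584, 588, 591, 602 and 780. All KO libraries but KO 584 were above every WT library, and KO 584 lay within the WT range. The log2 fold change was 0.68 with a standard error (SE) of 0.15 (edgeR adjusted p = 0.0265). That call was lost in 5 of 12 fits that left out 1 library each (WT 573, WT 776, WT 777, KO 574 or KO 588), with an adjusted p of at most 0.0633.

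Colec11, a collectin of the lectin complement pathway, was at 16.8 to 28.2 CPM in WT (median 20.1) and 25.7 to 33.9 CPM in KO (median 30.3). The WT libraries numbered 776 and 778 reached into the KO range and the other WT libraries stayed below it. Its log2 fold change was 0.50 (SE 0.13) and its edgeR adjusted p was 0.0534, just outside the threshold. It passed with DESeq2 (adjusted p = 0.0142), limma-voom (adjusted p = 0.0433), without the low-count filter and with the library number range as a covariate. Reln, which encodes the secreted glycoprotein reelin, ranged from 22.4 to 42.4 CPM in WT and from 30.8 to 50.04 CPM in KO (log2 fold change 0.48, edgeR adjusted p = 0.12). WT 778 stood apart from the other WT livers for Reln, which reached at most 29.7 CPM. Ecm1, a secreted matrix glycoprotein, ranged from 45.9 to 101.7 CPM in WT and from 75.7 to 149.8 CPM in KO (log2 fold change 0.50, edgeR adjusted p = 0.163). Rgs5, a regulator of G protein signalling found in pericytes, had a log2 fold change of 0.62 (SE 0.28, edgeR adjusted p = 0.227) and a wide spread in WT, from 14.2 to 37.9 CPM. Des, the muscle-type intermediate filament desmin, moved least of the 6, from a mean of 3.56 ± 0.70 to 4.08 ± 0.57 CPM (log2 fold change 0.20). The lowest KO library was KO 602 for Reln, Colec11 and Ecm1, and the highest was KO 780 for those genes and Rgs5.

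Of the growth factors and receptors, Pdgfrb rose and Pdgfra, Hgf and Tgfb1 did not pass. Pdgfrb encodes the receptor for platelet-derived growth factor B (chr18:61045150-61085061, plus strand, mm10). It was at 6.82, 7.04, 7.59, 7.06, 5.39 and 6.73 CPM in WT 573, 590, 601, 776, 777 and 778, and at 10.4, 9.29, 8.44, 8.38, 9.17 and 9.29 CPM in KO 574, 584, 588, 591, 602 and 780. The groups did not overlap, with 7.59 CPM the highest WT value and 8.38 CPM the lowest KO value. This is a small change with a small spread: the log2 fold change was 0.43 (SE 0.10, edgeR adjusted p = 0.0239), and the coefficient of variation was 10.96% in WT and 7.87% in KO. It lost its call in 3 of 12 fits, without WT 573, WT 778 or KO 574, and also when WT 776 and KO 584 were left out (edgeR adjusted p = 0.0516).

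Pdgfra, the receptor of fibroblast-type cells, had a log2 fold change of 0.45 (SE 0.22, edgeR adjusted p = 0.26), with KO 574 at 8.95 CPM and KO 780 at 11.2 CPM above the other 4 KO libraries, which lay between 4.89 and 6.14 CPM. Hgf, the stellate-derived mitogen of hepatocytes, ran from 0.80 to 3.65 CPM in WT and from 1.83 to 5.26 CPM in KO, with KO 780 highest again (log2 fold change 0.57, SE 0.35). Tgfb1, the main fibrogenic cytokine of the liver, had a log2 fold change of 0.19 (SE 0.20, edgeR adjusted p = 0.638). Its KO values spread on both sides of the WT range, from 2.18 CPM in KO 584 to 5.29 CPM in KO 588.

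Prrx1 showed the largest change of the 36. It encodes a paired-related homeobox transcription factor of limb and connective tissue mesenchyme, and lies at chr1:163245119-163313710 on the minus strand (mm10). In WT 573, 590, 601, 776, 777 and 778 it was at 0.61, 0.33, 0.74, 0.29, 0.44 and 0.61 CPM, and in KO 574, 584, 588, 591, 602 and 780 at 2.69, 1.03, 2.46, 1.67, 1.40 and 1.85 CPM. The groups did not overlap, and KO 584 was the lowest KO library. Its log2 fold change was 1.88 (SE 0.28, edgeR adjusted p = 0.00266), and it passed in 12 of 12 fits that left out a library. The level was low: between 8 and 25 fragments were counted per WT library and between 24 and 125 per KO library. Per length it stayed at 0.0455 RPKM (CPM divided by exonic length in kilobases) on average in WT and 0.167 RPKM in KO, below the mean of every other tested gene of the list in the same genotype.

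Dcn, Lum and Bgn encode the small leucine-rich proteoglycans decorin, lumican and biglycan, which bind collagen fibrils. None of these 3 passed the edgeR test, and DESeq2 called Bgn alone among them. Bgn was at 53.1 to 89.5 CPM in WT and at 85.2 to 105.9 CPM in KO, with 5 of 6 KO livers above every WT liver (log2 fold change 0.36, SE 0.11, edgeR adjusted p = 0.0905). Dcn was the most abundant gene of the list per length, with a mean of 48.2 RPKM in WT and 66.9 RPKM in KO. It was at about 77 to 85 CPM in 4 WT livers, at 136.7 CPM in WT 776 and at 149.8 CPM in WT 778, and the KO livers lay between 116.2 and 191.2 CPM. Lum differed least, with a log2 fold change of 0.30 (SE 0.27), and KO 584 was its lowest library at 3.30 CPM.

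The sequence just before the transcription start is printed for Prrx1 and Lrat, which rose, and for Col3a1, a fibrillar collagen whose level varied widely between mice. Each run holds bases upstream of every annotated exon of the deposited table, from the RefSeq promoter table (GRCm38.p6, the assembly of mm10), read 5′ to 3′ on the gene's strand. The Prrx1 run is chr1:163313711-163313900 (minus strand), the Lrat run chr3:82903975-82904224 (minus strand) and the Col3a1 run chr1:45311288-45311537 (plus strand). Capitals mark matches to any of 5 motifs searched on both strands, which are given with their counts in the next paragraph, the CArG box by name.
Prrx1: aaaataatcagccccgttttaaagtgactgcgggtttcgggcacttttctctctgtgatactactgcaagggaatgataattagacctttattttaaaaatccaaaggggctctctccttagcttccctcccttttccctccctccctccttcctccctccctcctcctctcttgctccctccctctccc
Lrat: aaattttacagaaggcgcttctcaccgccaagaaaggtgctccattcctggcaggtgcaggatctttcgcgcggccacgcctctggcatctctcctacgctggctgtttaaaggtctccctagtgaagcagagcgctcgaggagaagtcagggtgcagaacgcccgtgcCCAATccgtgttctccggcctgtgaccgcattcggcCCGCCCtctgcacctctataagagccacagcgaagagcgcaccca
Col3a1: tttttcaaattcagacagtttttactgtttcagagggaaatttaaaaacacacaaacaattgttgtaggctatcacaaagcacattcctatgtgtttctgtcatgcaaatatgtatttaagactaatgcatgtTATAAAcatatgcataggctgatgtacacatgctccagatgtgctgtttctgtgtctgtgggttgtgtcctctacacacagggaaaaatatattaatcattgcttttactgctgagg
The Lrat run holds CCAAT 81 bases and the reverse complement of GGGCGG 45 bases before the start. The Col3a1 run holds TATAAA 117 bases before the start, and the Prrx1 run holds none of the 5.

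The RefSeq table held 27 of the 38 genes, with 29 windows of 250 bases before a start. Of those 29 windows, 17 held GGGCGG (32.7% of all 32851 windows of the table did), 9 held CCAAT (33.8% of all), 2 held TATAAA (12.4% of all), 2 held TGANTCA, the letters bound by AP-1 (6.75% of all), and 0 held a CArG box, the motif of serum response factor (1.47% of all). A CArG box can itself contain TATAAA. A match is a stretch of letters and no measure of binding.

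Fibrillar collagens were higher in KO by 1.28 to 1.46-fold on average, and 0 of 5 passed, in edgeR as in DESeq2 and limma-voom. At an unadjusted p of 0.05 edgeR passed 0, and DESeq2 and limma-voom 1 each. For Col1a1, Col1a2, Col3a1 and Col5a2 the SD within WT was larger than the difference between the means. Col1a1, a chain of type I collagen (chr11:94936224-94953042, plus strand, mm10), was at 3.11, 9.12, 14.6, 5.26, 0.95 and 2.79 CPM in WT 573, 590, 601, 776, 777 and 778, and at 7.28, 3.77, 6.44, 9.001, 21.7 and 4.08 CPM in KO 574, 584, 588, 591, 602 and 780. It varied 15.3-fold within WT, WT 777 was the lowest library of the 12 and KO 602 the highest. The log2 fold change of 0.55 had an SE of 0.61 (edgeR adjusted p = 0.645) and ran from 0.05 without KO 602 to 1.03 without WT 601 when 1 library was left out.

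Col1a2, the partner chain of Col1a1, and Col3a1, of type III collagen, had the same libraries at the extremes in WT. Col3a1 was at 8.40, 27.3, 28.2, 13.9, 4.25 and 9.37 CPM in WT 573, 590, 601, 776, 777 and 778, and at 17.3, 11.3, 17.4, 23.6, 50.9 and 9.13 CPM in KO 574, 584, 588, 591, 602 and 780. WT 590, WT 601 and KO 602 were the 3 highest libraries and WT 777 the lowest. Its log2 fold change was 0.50 (SE 0.52), and ran from 0.05 without KO 602 to 0.77 without WT 601. Col1a2 had a log2 fold change of 0.50 (SE 0.38, edgeR adjusted p = 0.483). Col5a1 and Col5a2, chains of the type V collagen that sets fibril width, had log2 fold changes of 0.36 (SE 0.17) and 0.42 (SE 0.31). Col5a1 was lowest in WT 777 and highest in KO 602, as was Col1a1, while Col5a2 was highest in KO 584, at 5.86 CPM, the lowest KO library for Col1a1.

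Per length, Col1a1 stood to Col1a2 in a ratio between 0.507 in WT 777 and 1.67 in KO 602. The ratio was highest in the livers with the most Col1a1, so the Col1a1 chain varied more than its partner. Against Lrat, as a stellate gene, Col1a1 per length varied from 0.143 in WT 777 to 1.57 in KO 602, an 11-fold range over the 12 libraries. The group medians of that ratio were 0.557 in WT and 0.414 in KO.

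WT 590, WT 601 and KO 602 had the most fibrillar collagen RNA and also the most acute phase RNA. Among the other livers the order differed in part. Summed fibrillar collagen and acute phase levels were 58.97 and 12960 CPM in KO 591, 45.87 and 19480 CPM in KO 588, and 47.1 and 8745 CPM in KO 574. Saa1, the serum amyloid A gene that hepatocytes switch on in inflammation, was at 8337 CPM in WT 590, 6920 CPM in WT 601 and 17490 CPM in KO 602. It was at 3653 CPM in KO 588, at 1840 CPM in KO 591 and at no more than 83.8 CPM in the other 7 livers. All 8 acute phase genes listed had a fitted change above 0 and 0 passed in edgeR, DESeq2 or limma-voom, also at an unadjusted p of 0.05. Their summed level was 6148 to 39940 CPM in WT and 7532 to 74230 CPM in KO. Leaving out WT 590, WT 601 and KO 602 kept the calls of Prrx1, Lrat and Pdgfrb and the change above 0 in 36 of 36. It moved the log2 fold change of Col1a1 to 1.02 (edgeR adjusted p = 0.204). That fit kept KO 588 and KO 591, while its WT livers had at most 65.0 CPM of Saa1. It therefore did not even out acute phase RNA between the genotypes. The part of acute phase differences in the collagen levels was not tested.

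**Figure D3:**
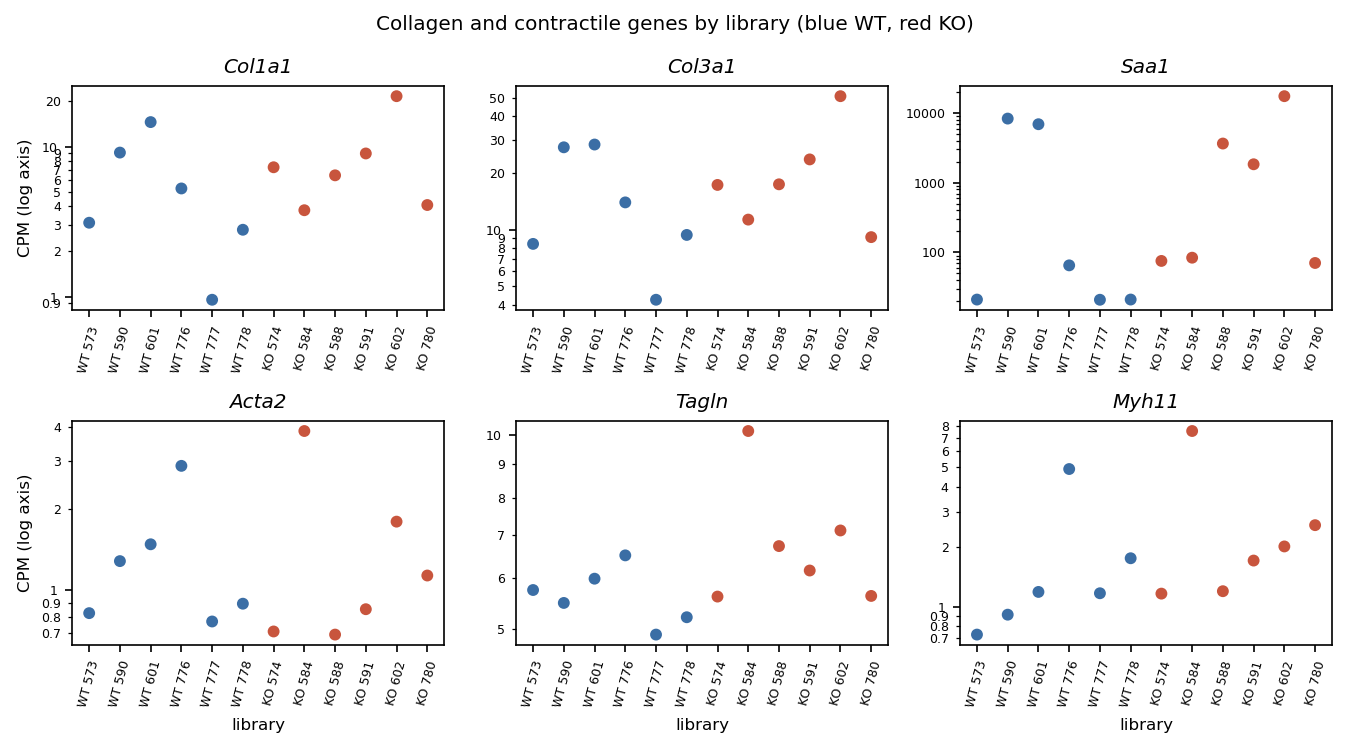
CPM of Col1a1, Col3a1, Saa1, Acta2, Tagln and Myh11 in each library on log axes, WT in blue and KO in red. WT 590, WT 601 and KO 602 stand high for Col1a1, Col3a1 and Saa1, and WT 776 and KO 584 stand high for Acta2 and Myh11.

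Chains of collagen VI, which forms beaded filaments around cells, and of collagen XIV, a fibril-associated collagen, had log2 fold changes between 0.31 and 0.47 in KO. The test passed 0 of 4, DESeq2 called Col14a1, limma-voom called 0, and 2 had an unadjusted edgeR p under 0.05. Of all 13706 tested genes, DESeq2 called 548 higher in KO, and 11.3% were higher at that unadjusted edgeR p. Col14a1 (chr15:55307750-55520803, plus strand, mm10) was at 17.9 to 30.0 CPM in WT (median 23.3) and at 27.4 to 37.3 CPM in KO (median 32.8). Its groups overlapped only through WT 776 and WT 778, and its log2 fold change was 0.45 (SE 0.13, edgeR adjusted p = 0.0736). The collagen VI chains Col6a1, Col6a2 and Col6a3 had log2 fold changes of 0.34, 0.31 and 0.47, and KO 602 was their highest library, alone above all WT livers for each. Per length the ratio of Col6a1 to Col6a2 lay between 3.05 and 4.88 in all 12 libraries.

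Basement membrane genes were higher in KO with a median log2 fold change of 0.51, and all 6 had every KO library above the WT median. The share of all tested genes with every KO library above the WT median was not worked out. The edgeR test passed 0 of 6, limma-voom 0 and DESeq2 2 (Col4a2 and Lamb1), and 5 had an unadjusted edgeR p under 0.05. Of all 13706 tested genes, DESeq2 called 548 higher in KO, and 11.3% were higher at that unadjusted edgeR p. Col4a2, a chain of the network-forming collagen IV, was at 14.04, 24.0, 24.1, 18.4, 12.2 and 23.1 CPM in WT 573, 590, 601, 776, 777 and 778, and at 35.5, 21.1, 30.9, 33.2, 46.3 and 27.3 CPM in KO 574, 584, 588, 591, 602 and 780. All KO livers but KO 584 were above every WT liver. Its log2 fold change was 0.75 (SE 0.21, edgeR adjusted p = 0.0631), which passed in 1 of 12 fits, without KO 584. Col4a1, its partner chain, had a log2 fold change of 0.58 (SE 0.20, edgeR adjusted p = 0.119).

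Col4a1 and Col4a2 are transcribed away from each other on chromosome 8, from starts at 11312826 (minus strand) and 11312805 (plus strand, mm10), and their exons share 22 bases. Their ratio per length stayed between 0.913 and 1.61. The laminin chains Lamb1, Lama4 and Lamc1 had log2 fold changes of 0.52, 0.49 and 0.23, with edgeR adjusted p-values of 0.105, 0.15 and 0.187. Nid1, the nidogen that links laminin to collagen IV, had one of 0.33 (edgeR adjusted p = 0.261). Lamc1 varied least of the 6 over all 12 libraries, at 11.4 to 14.3 CPM in WT and 12.7 to 17.5 CPM in KO. WT 777 was the lowest library of all 12 for Col4a1, Col4a2, Lama4, Lamb1 and Nid1.

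Contractile genes did not separate the genotypes, and 0 of 2 passed in edgeR, DESeq2 or limma-voom, also at an unadjusted p of 0.05. Acta2, smooth muscle actin, was at 0.83, 1.28, 1.48, 2.87, 0.77 and 0.89 CPM in WT 573, 590, 601, 776, 777 and 778, and at 0.71, 3.85, 0.69, 0.85, 1.79 and 1.14 CPM in KO 574, 584, 588, 591, 602 and 780. KO 584 and WT 776 were far above the rest, and KO 588 and KO 574 were below all WT livers. The log2 fold change was 0.13 (SE 0.47), and it was -0.042 when WT 776 and KO 584 were left out. Tagln, the actin-binding protein transgelin, had a log2 fold change of 0.29 (SE 0.14, edgeR adjusted p = 0.27) and was highest in KO 584 as well, at 10.1 CPM. Myh11, the smooth muscle myosin heavy chain of vessel walls, reached 4.89 CPM in WT 776 and 7.58 CPM in KO 584, while the other 10 libraries had 0.73 to 2.57 CPM. Of 9 smooth muscle markers, 5 had enough counts for the test, 4 of these were above 0 and 0 passed in edgeR, DESeq2 or limma-voom (1 at an unadjusted p of 0.05). Their summed level was 96.6 to 116.4 CPM in WT and 96.3 to 110.3 CPM in KO, and Cnn1, a defining marker, was at 0 in some libraries. Mylk made up most of that sum, at 77.5 to 100.2 CPM, and was lowest in its group in WT 776 and in KO 584, so the sum does not follow Myh11. The part of vessel-wall RNA in the Acta2 level was not tested.

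Matrix organisers were higher in KO by log2 fold changes of 0.59 (Loxl2), 0.56 (Fbn1) and 0.32 (Sparc), and 0 of the 3 tested passed in edgeR, DESeq2 or limma-voom. At an unadjusted p of 0.05, edgeR passed 0, DESeq2 1 and limma-voom 2. Loxl2, a lysyl oxidase that cross-links collagen, ranged from 0.70 CPM in WT 777 to 2.64 CPM in WT 590 and from 1.58 to 3.71 CPM in KO. Fbn1, the microfibril protein fibrillin, ranged from 1.02 to 3.53 CPM in WT and stayed between 2.37 and 3.45 CPM in KO. The groups overlapped only through WT 776, and the other WT libraries had at most 2.22 CPM. With 1 library left out, the log2 fold change of Fbn1 ran from 0.42 without WT 573 to 0.82 without WT 776. Fbn1 exons overlap those of the gene model Gm9913 on the opposite strand over 2442 of 12128 bases. Sparc, a collagen-binding protein, was at 32.8 to 36.3 CPM in 5 KO livers and at 52.5 CPM in KO 602. Lox, the founding lysyl oxidase, was too low for the test, at 0.04 to 0.59 CPM over all libraries. A count of 0 allows up to 3 fragments, or 0.059 to 0.131 CPM at these depths, a limit for counting error only.

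Among the tissue inhibitors of metalloproteinases, Timp2 had a log2 fold change of 0.28 (SE 0.12, edgeR adjusted p = 0.205) and Timp3 one of 0.07 (SE 0.26). The test passed 0 of these 2 in edgeR, DESeq2 and limma-voom, with 1 (Timp2) at an unadjusted p of 0.05. Timp3 exons overlap those of Syn3 on the opposite strand over 1733 of 8144 bases, and the counting used no strand. Timp1, the inhibitor that rises in fibrosis, was too low for the test, with 107 fragments over all 12 libraries. WT 590 had 1.32 CPM and KO 602 had 1.88 CPM, against no more than 0.26 CPM in the other 10 livers, 3 of which had no fragment.

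**Figure D4:**
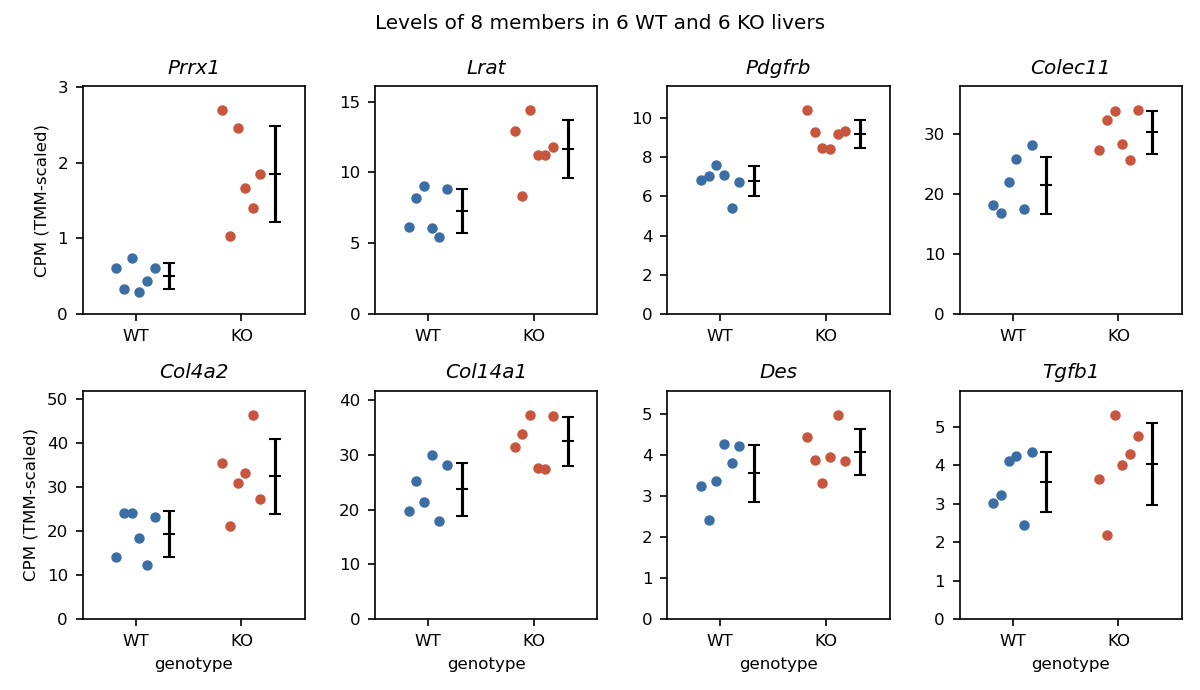
CPM of Prrx1, Lrat, Pdgfrb, Colec11, Col4a2, Col14a1, Des and Tgfb1 in each of the 6 WT (blue) and 6 KO (red) livers, with the mean and SD beside the points and axes from 0. The groups are apart for Prrx1 and Pdgfrb, only KO 584 reaches into the WT range for Lrat and Col4a2, and Des and Tgfb1 overlap widely.

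Across the list, the low end of the WT group was mostly 1 liver. WT 777 was the lowest WT library for 25 of the 38 genes and the lowest of all 12 for 23. Without it, 35 of 36 fitted changes stayed above 0, their median went from 0.46 to 0.34, and Lrat lost its call. At the high end, KO 602 led the KO group for 15 genes, among them the collagens I, III, IV and VI, Sparc, Loxl2 and Timp1, and without it the median was 0.34. KO 780 led it for 10 others, among them Reln, Colec11, Ecm1, Rgs5, Pdgfra, Hgf and Dcn. KO 584 was the lowest KO liver for 13 genes and the highest for Col5a2, Acta2 and Tagln.

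The library numbers fall in 2 ranges, which the labels do not explain. With the range as a covariate over all 12 libraries, Prrx1, Lrat and Pdgfrb kept their calls (edgeR adjusted p = 0.00579, 0.0396 and 0.0372). Colec11, Ecm1, Rgs5, Dcn and Col14a1 passed as well in that fit, with log2 fold changes of 0.60, 0.70, 0.92, 0.68 and 0.53. Col1a1 and Col3a1 had values of 0.20 and 0.13. Over all 13706 tested genes that fit called 316 higher in KO, against 236 with genotype alone. Within 573 to 602 (3 WT, 5 KO) the difference of mean log2 CPM was above 0 in 36 of 36 genes, with a median of 0.37, and within 776 to 780 (3 WT, 1 KO) in 34 of 36, with a median of 0.58. In a fit to the libraries from 573 to 602 alone Prrx1, Lrat and Pdgfrb did not pass (log2 fold changes 1.74, 0.59 and 0.36, edgeR adjusted p = 0.101, 0.212 and 0.215), and Dcn did.

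Other genes of stellate cells and of matrix signalling were taken from lists of related genes, chosen with earlier results of these data known. Of all tested genes, 51.8% had a change above 0, 1.72% rose and 2.09% fell. Of 18 other stellate genes 17 were tested, 16 of these had a change above 0 with a median of 0.40, and 2 rose: Ngfr, the low-affinity neurotrophin receptor (log2 fold change 0.87, edgeR adjusted p = 0.0451), and Pth1r, the parathyroid hormone receptor (0.50, edgeR adjusted p = 0.049). Each of these kept its call in 2 of 12 fits that left out a library. Among 23 genes of transforming growth factor beta and platelet-derived growth factor signalling 19 were above 0 with a median of 0.18, and 1 rose. This was Tgfbr2, the signalling receptor for transforming growth factor beta, which went from 24.6 ± 3.33 to 38.2 ± 8.24 CPM (log2 fold change 0.64, SE 0.13, edgeR adjusted p = 0.0189). In Tgfbr2 5 of 6 KO livers were above every WT liver, and the call was lost without WT 777 (edgeR adjusted p = 0.0529).

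Of 26 other matrix genes tested, 20 were above 0 and 1 fell, beside 51.8% and 2.09% of all tested genes. The gene that fell was Col4a5, a collagen IV chain of other basement membranes. It went from 1.87 ± 0.74 to 0.85 ± 0.27 CPM (log2 fold change -1.14, edgeR adjusted p = 0.04) and kept its call in 3 of 12 fits. Enzymes and chaperones of collagen processing gave 10 of 15 above 0 with a median of 0.10, and 0 passed in edgeR, DESeq2 or limma-voom (1 at an unadjusted p of 0.05 in edgeR). Among matrix proteases 8 of 15 were tested and 0 passed in any of the 3 tools, with 1 lower in KO at an unadjusted p of 0.05. Integrins gave 7 of 11 above 0 and 0 past the edgeR threshold, with 1 higher and 2 lower at an unadjusted p of 0.05; DESeq2 called 3 and limma-voom 2.

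Markers of other liver cells were read in the same fit, in which 51.8% of all tested genes were above 0 and 1.72% rose. At an unadjusted p of 0.05, 11.3% of all tested genes were higher and 9.9% lower. All 11 Kupffer cell markers had a fitted change above 0, with a median of 0.69, a summed level of 134 to 222 CPM in WT and 138 to 491 CPM in KO, and 0 past the edgeR threshold (10 at an unadjusted p of 0.05; DESeq2 called 3 and limma-voom 0). Clec4f, which defines Kupffer cells, averaged 40.0 ± 8.45 CPM over the WT livers and 67.4 ± 24.0 CPM over the KO livers. All 10 sinusoidal endothelial markers were above 0 with a median of 0.20, at a sum of 151 to 298 CPM in WT and 240 to 289 CPM in KO, and 1 rose: Stab2, a scavenger receptor (log2 fold change 0.48, edgeR adjusted p = 0.0452, called in 3 of 12 fits that left out a library). Portal fibroblast and mesothelial markers gave 7 of 7 above 0 with a median of 0.20, at a sum of 4.47 to 14.01 CPM in WT and 8.16 to 12.7 CPM in KO, with 0 called by edgeR, DESeq2 or limma-voom, also at an unadjusted p of 0.05. Lymphocyte and neutrophil markers gave 6 of 6 above 0 with a median of 0.80, at a sum of 6.19 to 13.1 CPM in WT and 10.1 to 27.5 CPM in KO (edgeR called 0 and 2 at an unadjusted p of 0.05, DESeq2 2, limma-voom 1). Hepatocyte markers gave 0 of 7 above 0, with a median of -0.10 and 0 called by the 3 tools (2 lower at an unadjusted p of 0.05). Cholangiocyte markers gave 1 of 5 above 0, with a median of -0.14, 0 called by the 3 tools and 0 at an unadjusted p of 0.05. No defining marker of these lists was at 0 in all libraries, and Gli1, of the portal fibroblast list, was at 0 in WT 777 alone.

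With the mean level of the Kupffer cell and endothelial markers as a covariate, the edgeR test called 66 genes in all and 0 of the 36, of which 6 were higher at an unadjusted p of 0.05. The number above 0 went from 36 to 27 and the median from 0.46 to 0.21. Prrx1 had a log2 fold change of 1.66 in that fit (edgeR adjusted p = 0.0861), Pdgfrb 0.42 (edgeR adjusted p = 0.184) and Lrat 0.40 (edgeR adjusted p = 0.371). Col1a1 and Col3a1 changed sign, to -0.48 and -0.43. The covariate itself tended to be higher in KO, with a mean log2 CPM of 3.58 to 4.26 in WT and 3.79 to 4.67 in KO, so its share and that of the genotype cannot be told apart in full.

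**Figure D5:**
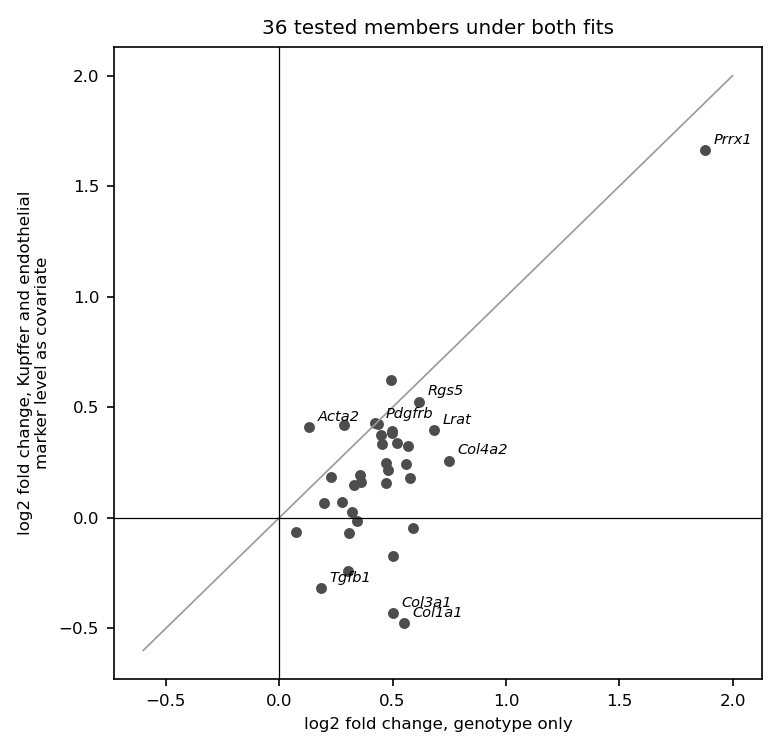
Log2 fold change of the 36 tested genes with genotype alone (horizontal) and with the Kupffer cell and endothelial marker level as a covariate (vertical); the diagonal marks equal values. Prrx1 stays at 1.66, Pdgfrb at 0.42 and Lrat goes from 0.68 to 0.40, while Col1a1, Col3a1 and Tgfb1 lie below 0 on the vertical axis.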

How the data were processed

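Livers were flash frozen, RNA was extracted with the miRNeasy kit and TruSeq libraries were sequenced, per the labels' protocols. The deposited table held raw counts of read-pair fragments; per the file headers, the authors ran featureCounts 1.5.0-p2 over GENCODE M8 exons by gene name, with no strand option; it also gave each gene's exonic length, another value the authors deposited, which was used for RPKM. STAR, DESeq2 and mm10 are named in the submitters' processing notes, without versions. Overlapping genes on opposite strands cannot be told apart in such counts.

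The test was edgeR 4.0.16 under R 4.3.3, with filterByExpr (minimum count 10), TMM scaling and a robust quasi-likelihood test with genotype as the only term, adjusted by Benjamini and Hochberg over 13706 genes at 0.05. The standard error is the size of the log2 fold change over the square root of F. CPM are TMM-scaled, and log2 CPM used a prior count of 2. The steps were tested on simulated data of 6 against 6 libraries. They recovered 42% of genes changed 1.5-fold and 84% of those changed 2-fold, so a gene that did not pass can still differ.

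The 38 genes and all related lists were chosen with earlier results of these data known. Every gene of the 38 is named; from other lists genes past the threshold and defining markers are. Alternatives were RLE factors, library totals, other low-count filters, DESeq2 1.42.0, limma-voom (limma 3.58.1), covariates and left-out libraries. Leaving out WT 590, WT 601 and KO 602, or WT 776 and KO 584, was chosen after seeing the data.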

Additional observations from a re-analysis of the deposited data

Results flagged for a closer look

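Of 76 sets of 6 libraries (38 genes in 2 genotypes), 12 had 1 library set apart from the other 5 by Dixon's criterion at 95%, on CPM; chance flags about 1 set in 20, and the sets share libraries. KO 602 accounted for 6: Col1a1 at 21.7 CPM, Col3a1 at 50.9, Col6a2 at 8.56, Col6a3 at 14.1, Sparc at 52.5 and Timp1 at 1.88 CPM, each the highest KO value. KO 584 stood above the other KO livers for Acta2 (3.85 CPM) and Tagln (10.1 CPM). WT 776 stood above the other WT livers for Acta2 (2.87 CPM) and Lox (0.59 CPM), WT 590 for Timp1 (1.32 CPM) and WT 778 for Reln (42.4 CPM). Prrx1, Lrat and Pdgfrb had no library set apart in either genotype.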

How the results depend on the processing

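The count of genes past the threshold was 523. It was 1172 with DESeq2 (548 higher in KO), 573 with limma-voom (264 higher) and 684 with the number range as a covariate (316 higher). It was 57 with libraries 573 to 602 only and 66 with the Kupffer cell and endothelial covariate. Without both deepest libraries (WT 573 and KO 588) it was 206. With 1 library left out it ran from 266 (without WT 777) to 638 (without WT 590). With library totals in place of TMM, 266 were higher and 139 lower (65.7% higher, against 45.1%). Of the stellate cell and matrix genes 3 passed. This was 8 with DESeq2 (adding Bgn, Col14a1, Col4a2, Colec11 and Lamb1), 8 with the number range as a covariate (adding Col14a1, Colec11, Dcn, Ecm1 and Rgs5), 1 with libraries 573 to 602 only, 0 with the cell marker covariate, 1 without both deepest libraries (Prrx1), and 1 to 4 with 1 library left out. It was 1 without WT 573 or KO 574 and 4 without WT 776, WT 778 or KO 584. Without the low-count filter it stayed 3, with Colec11 in place of Pdgfrb. The cause was not tested, and fits to fewer libraries have fewer replicates. Shares of all tested genes at an unadjusted p were worked out for edgeR alone.

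Some log2 fold changes turned negative. Acta2 went to -0.050 with limma-voom, to -0.042 without WT 776 and KO 584, and ranged from -0.40 to 0.50 with 1 library left out. Timp3 ranged from -0.10 to 0.25. With the cell marker covariate the values were -0.32 for Tgfb1, -0.24 for Lum, -0.48 for Col1a1, -0.17 for Col1a2, -0.43 for Col3a1, -0.016 for Col6a1, -0.068 for Col6a2, -0.046 for Loxl2 and -0.066 for Timp3. Low counts limit Prrx1, Lox and Timp1. No paired analysis was possible because WT and KO libraries share no number.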
